A study of Mus musculus with 22 samples.

Results

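Immediate early and other activity-regulated genes are the genes that neurons switch on when they fire. A set of 43 of them was chosen by name and looked up by Entrez gene number among the 20768 named genes on the arrays, out of 21225 features. All 43 had a value on all 22 arrays, no filter on signal was applied, and 0 of the 43 lie on chromosome 16, which carries the segment triplicated in Ts1Cje mice.

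Ts1Cje mice carry an extra copy of part of chromosome 16 through a translocation and serve as a model of Down syndrome. Whole-transcript arrays were hybridized with RNA from the hippocampus and the cerebral cortex of 6 Ts1Cje females and 5 WT female littermates, aged 8 to 10 weeks, from Ts1Cje sires crossed to C57Bl/6J. Every animal gave both tissues, RNA was extracted with one kit for hippocampus and another for cortex, and the labels name no treatment. The labels do not give the hour of death, the order in which animals were killed or what they did before.

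Firing lets calcium into a neuron and activates kinases that phosphorylate factors already bound at these promoters, chiefly CREB and the serum response factor, so the first genes need no newly made protein. Their products are mostly transcription factors, such as Fos, the EGR family, Npas4 and the NR4A receptors, and phosphatases that shut the kinase pathway down again. Other products act at synapses, such as Homer1, Bdnf and the neuronal pentraxin Nptx2. The RNA of the first genes is short-lived, so its level follows recent induction. What induced these genes in these animals was not tested. In bulk tissue more active cells and more RNA per cell cannot be told apart.

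The promoters of the rapidly induced genes are shown as background. Whether the sites below bear on how these genes varied from animal to animal was not tested. RefSeq promoters on GRCm38.p6 were held for 33 of the 43 genes, among them 9 of the 12 classed as rapidly induced, and the 250 bases before each start were searched on both strands. The short form of the cAMP response element, TGACG or its complement CGTCA, was found in 9 of those 9 genes and in 13 of the 24 others, against 19.8% of 27025 genes. It is the core of the CREB binding site. Capitals mark it in the windows below, written 5′ to 3′ on the gene's strand, or the whole palindrome TGACGTCA in Btg2 and Dusp1. The Fos window is chr12:85473799-85473853 on the plus strand and the Fosb window chr7:19310076-19310130 on the minus strand. Junb is shown at chr8:84978825-84978879 and Egr4 at chr6:85513669-85513723, both on the minus strand. Nr4a1 is shown at chr15:101266774-101266835 on the plus strand and Npas4 at chr19:4990111-4990165 on the minus strand. Btg2 is shown at chr1:134079289-134079343 and Dusp1 at chr17:26508583-26508637, both on the minus strand.
Fos: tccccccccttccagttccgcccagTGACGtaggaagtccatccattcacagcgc
Fosb: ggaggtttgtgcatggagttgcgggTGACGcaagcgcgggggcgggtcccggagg
Junb: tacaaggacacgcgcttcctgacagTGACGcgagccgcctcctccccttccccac
Egr4: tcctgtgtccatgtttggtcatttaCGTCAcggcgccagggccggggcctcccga
Nr4a1: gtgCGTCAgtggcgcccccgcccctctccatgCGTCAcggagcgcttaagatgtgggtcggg
Npas4: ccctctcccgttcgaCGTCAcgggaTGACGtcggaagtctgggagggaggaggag
Btg2: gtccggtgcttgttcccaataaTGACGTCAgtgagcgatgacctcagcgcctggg
Dusp1: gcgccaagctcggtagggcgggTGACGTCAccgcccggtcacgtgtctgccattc

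The nearest match to the start of Fos began 66 bases before it, that of Nr4a1 40 bases and that of Npas4 169 bases before it. The full element TGACGTCA was found in 5 of the 33 genes, namely Btg2, Dusp1, Arl4d, Maff and Plk2, against 1.77% of genes. A CArG box, the site of the serum response factor, was found in Egr2 and Dusp5 and in 1.62% of genes. The AP-1 site TGACTCA, whose first 4 letters also begin the short element, was found in Csrnp1 and in 5.16% of genes, and the EGR site GCGTGGGCG in Maff and in 0.622% of genes. A match is a stretch of letters and was not measured as a bound site.

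The arrays are described here once. The values are RMA signals on the log2 scale, and the array medians lay at 6.91 to 6.95 in hippocampus and 7.53 to 7.62 in cortex. The arrays of Ts1Cje animal 64 and WT animal 60 stood apart in both tissues. In hippocampus their spread over genes (SD) was 1.98 and 2.06, against 2.14 to 2.19 on the other arrays, and in cortex 1.95 and 1.86, against 2.17 to 2.22. Their median correlation with the arrays of the same tissue was 0.985 and 0.991 in hippocampus and 0.976 and 0.967 in cortex, against at least 0.995 for all others. Values without both animals are therefore given beside the results.

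No activity-regulated gene passed the test between genotypes in either tissue, and the differences that stood highest belonged to rapidly induced genes. In hippocampus Npas4 was 1.46-fold, Arc 1.25-fold, Egr2 1.24-fold and Egr1 1.21-fold of the WT signal. In cortex Npas4 was 1.65-fold, Egr2 1.54-fold, Arc 1.44-fold and Dusp1 1.41-fold. The genes classed as rapidly induced were Fos, Fosb, Junb, Egr1, Egr2, Egr4, Nr4a1, Npas4, Ier2, Btg2, Dusp1 and Arc. All 12 were above 0 (Ts1Cje minus WT) in both tissues, with a median log2 difference of 0.25 in hippocampus and 0.39 in cortex. This class and the late one below were drawn up with earlier results of these data known, so their values are a description. Most genes outside both classes also lay above 0, among them Ptgs2 (0.31) and Trib1 (0.27) in cortex and Trib1 (0.24) in hippocampus. Those below 0 were Egr3, Ier5, Klf2 and Klf6 in cortex, and Arl4d, Gadd45g, Ier3, Jun, Klf2, Maff and Nr4a2 in hippocampus. The 8 genes classed as late induced, Bdnf, Nptx2, Vgf, Inhba, Plk2, Homer1, Nfil3 and Crem, had a median of 0.02 in hippocampus and -0.004 in cortex, with 6 and 4 of 8 above 0.

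In hippocampus limma, with Benjamini-Hochberg adjustment over all 20768 genes, called 0 of the 43 genes (background 0.111% of all genes), and 2 were at an unadjusted p under 0.05. Both were higher in Ts1Cje, where 2.00% of all genes met that mark. Of the 43 genes 34 lay above 0, against 46.3% of all genes, and their median log2 difference was 0.03 against -0.006 for all genes. No gene had every Ts1Cje array above every WT array (background 0.376%).

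Npas4, a transcription factor made almost only in neurons after calcium entry, had hippocampal signals of 7.29, 7.49 and 7.98 (lowest, median and highest of 6) in Ts1Cje. The 5 WT animals, 60, 62, 65, 95 and 98 in that order here and below, read 7.09, 6.80, 6.58, 7.34 and 7.36. Of the Ts1Cje animals 4 lay above every WT animal. The log2 difference was 0.54 ± 0.17 (SE; limma, unadjusted p = 0.0085, adjusted p = 1.00). Trib1, a pseudokinase adaptor that restrains kinase signalling, read 6.67, 6.74 and 6.99 in Ts1Cje (lowest, median, highest) and 6.44, 6.56, 6.53, 6.56 and 6.67 in WT. Of the 6 Ts1Cje animals 5 lay above every WT animal, and the difference was 0.24 ± 0.07 (limma, unadjusted p = 0.0045, adjusted p = 0.864).

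The other genes often used as reporters of activity overlapped more widely in hippocampus. Egr1, a zinc finger factor used as a marker of firing, read 9.65, 9.83 and 10.21 in Ts1Cje (lowest, median, highest) and 9.55, 9.41, 9.16, 9.84 and 10.01 in WT, a difference of 0.27 ± 0.15. Arc, which traffics glutamate receptors at active synapses, read 9.09, 9.22 and 9.43 in Ts1Cje and 8.73, 8.61, 8.52, 9.18 and 9.59 in WT (0.32 ± 0.17). WT animal 98 lay above all Ts1Cje animals for Arc, while WT animals 60, 62 and 65 lay below all of them.

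Fos, the AP-1 subunit most used to map active neurons, read 6.15, 6.40 and 6.98 in Ts1Cje hippocampus (lowest, median, highest) and 6.16, 5.86, 5.92, 6.50 and 6.58 in WT (0.27 ± 0.17). Egr2 read 6.12, 6.27 and 7.02 in Ts1Cje and 6.06, 5.59, 5.85, 6.13 and 6.70 in WT (0.31 ± 0.20). Nr4a1, a nuclear receptor with no known ligand, read 9.02, 9.25 and 9.48 in Ts1Cje and 8.79, 8.68, 8.63, 9.12 and 9.61 in WT (0.26 ± 0.16). For all 3 the groups overlapped, with WT animals 62 and 65 below every Ts1Cje animal.

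Homer1, a scaffold of the postsynaptic density, and the neurotrophin Bdnf gave hippocampal differences close to 0. Homer1 read 8.80, 9.29 and 9.36 in Ts1Cje (lowest, median, highest) and 8.96, 9.26, 9.14, 9.26 and 9.35 in WT (0.03 ± 0.10). Bdnf read 6.80, 7.02 and 7.15 in Ts1Cje and 6.85, 6.95, 7.11, 7.13 and 6.95 in WT (0.004 ± 0.07). In both genes the 2 arrays that stood apart gave the lowest signal of their genotype. The arrays gave a value per gene, so induced and other transcript forms of a gene were not told apart.

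In cortex limma called 0 of 43 genes (background 0.00482%), and 4 were at an unadjusted p under 0.05, Ier2, Npas4, Dusp1 and Egr2, all higher in Ts1Cje (background 0.886%). Of the 43 genes 35 lay above 0, against 48.6% of all genes, and the median log2 difference was 0.10 against -0.003 for all genes. No gene had every Ts1Cje array above every WT array (background 0.226%).

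**Figure D1:**
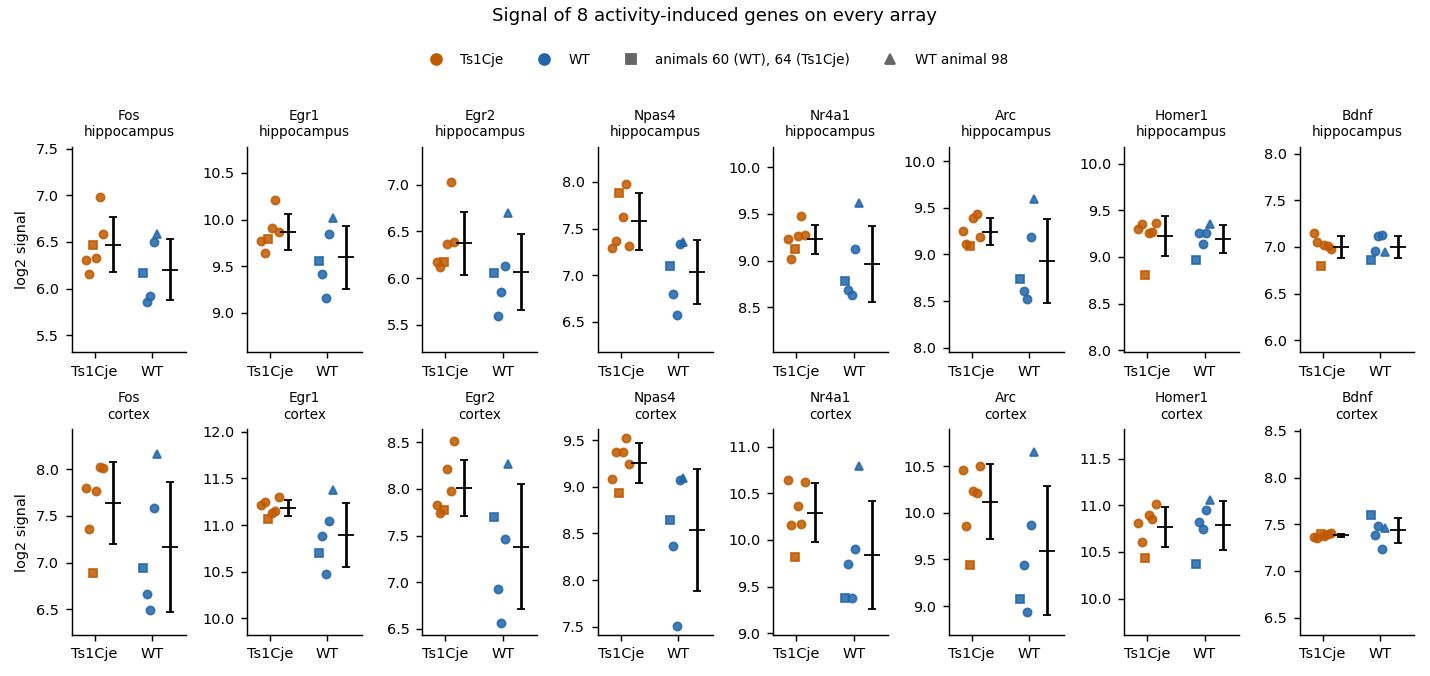
Log2 signal of 8 activity-induced genes on every array, hippocampus in the upper row and cortex in the lower, with Ts1Cje left of WT and the mean ± SD beside each group. Every panel spans the same range of log2 units. WT spreads more widely than Ts1Cje in most panels, and WT animal 98 stands above the other WT animals for Fos, Arc and Nr4a1 in both tissues.

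Npas4 read 8.93, 9.31 and 9.52 in Ts1Cje cortex (lowest, median, highest) and 8.65, 8.37, 7.51, 9.07 and 9.09 in WT. Of the Ts1Cje animals 4 lay above every WT animal, and the difference was 0.72 ± 0.25 (limma, unadjusted p = 0.0154, adjusted p = 1.00). Egr2, a zinc finger factor of the same family as Egr1, read 7.75, 7.90 and 8.51 in Ts1Cje and 7.69, 6.92, 6.56, 7.46 and 8.27 in WT (0.63 ± 0.27; unadjusted p = 0.0407). All Ts1Cje animals lay above WT animals 60, 62, 65 and 95, and only WT 98 reached into their range.

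Dusp1, a phosphatase that switches off MAP kinases, lay above WT animals 60, 62 and 65 in all Ts1Cje cortices and below WT animal 98 in all. It read 10.20, 10.53 and 10.66 in Ts1Cje (lowest, median, highest) and 9.67, 9.85, 9.67, 10.21 and 10.68 in WT (0.49 ± 0.17; limma, unadjusted p = 0.0161). Ier2, an early gene product of the nucleus, was dim, at 5.86, 5.90 and 6.10 in Ts1Cje and 5.86, 5.72, 5.59, 5.75 and 5.73 in WT (0.22 ± 0.07; unadjusted p = 0.0108). Its highest Ts1Cje and highest WT signals came from animals 64 and 60, the 2 whose arrays stood apart.

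Egr1 read 11.07, 11.18 and 11.30 in Ts1Cje cortex (lowest, median, highest) and 10.70, 10.89, 10.47, 11.04 and 11.38 in WT (0.29 ± 0.13). Arc read 9.44, 10.22 and 10.50 in Ts1Cje and 9.07, 9.44, 8.93, 9.87 and 10.65 in WT (0.52 ± 0.30). The WT animals spanned more of the scale than the Ts1Cje animals for both genes, from animal 65 at the bottom to animal 98 above all Ts1Cje animals.

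Fos read 6.88, 7.78 and 8.02 in Ts1Cje cortex (lowest, median, highest) and 6.94, 6.66, 6.49, 7.59 and 8.16 in WT (0.47 ± 0.31). Nr4a1 read 9.81, 10.27 and 10.64 in Ts1Cje and 9.38, 9.74, 9.38, 9.90 and 10.79 in WT (0.46 ± 0.25). Homer1, at 10.43, 10.83 and 11.02 in Ts1Cje and 10.37, 10.82, 10.74, 10.94 and 11.06 in WT, differed by -0.02 ± 0.14. Bdnf read 7.36, 7.38 and 7.40 in Ts1Cje cortex, the narrowest range of these genes, and 7.60, 7.39, 7.48, 7.23 and 7.47 in WT (-0.05 ± 0.07).

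By role, the 7 AP-1 and small Maf factors had a median log2 difference (Ts1Cje minus WT) of 0.03 in hippocampus, with 5 of 7 above 0, and 0.15 in cortex, with 7 of 7. The 4 EGR factors stood at 0.15 and 0.21, with Egr3 at 0.04 in hippocampus and -0.05 in cortex. The 3 NR4A receptors stood at 0.08 and 0.21. The 6 feedback enzymes and adaptors, which include the phosphatases Dusp1, Dusp5 and Dusp6 and the kinases Sik1 and Plk2, were all above 0 in both tissues, with medians of 0.09 and 0.20. The 11 other transcriptional regulators had medians of 0.01 and 0.04, and Klf2, Klf6, Crem and Ier5 were below 0 in cortex. The 4 synaptic effectors stood at 0.03 and 0.08, and the 3 secreted factors, Bdnf, Inhba and Vgf, at 0.004 and -0.05. The 5 growth, stress and prostaglandin genes stood at 0.06 and 0.17, led in cortex by Ptgs2 (0.31), the inducible cyclooxygenase. None of these groups held a called gene.

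**Figure D2:**
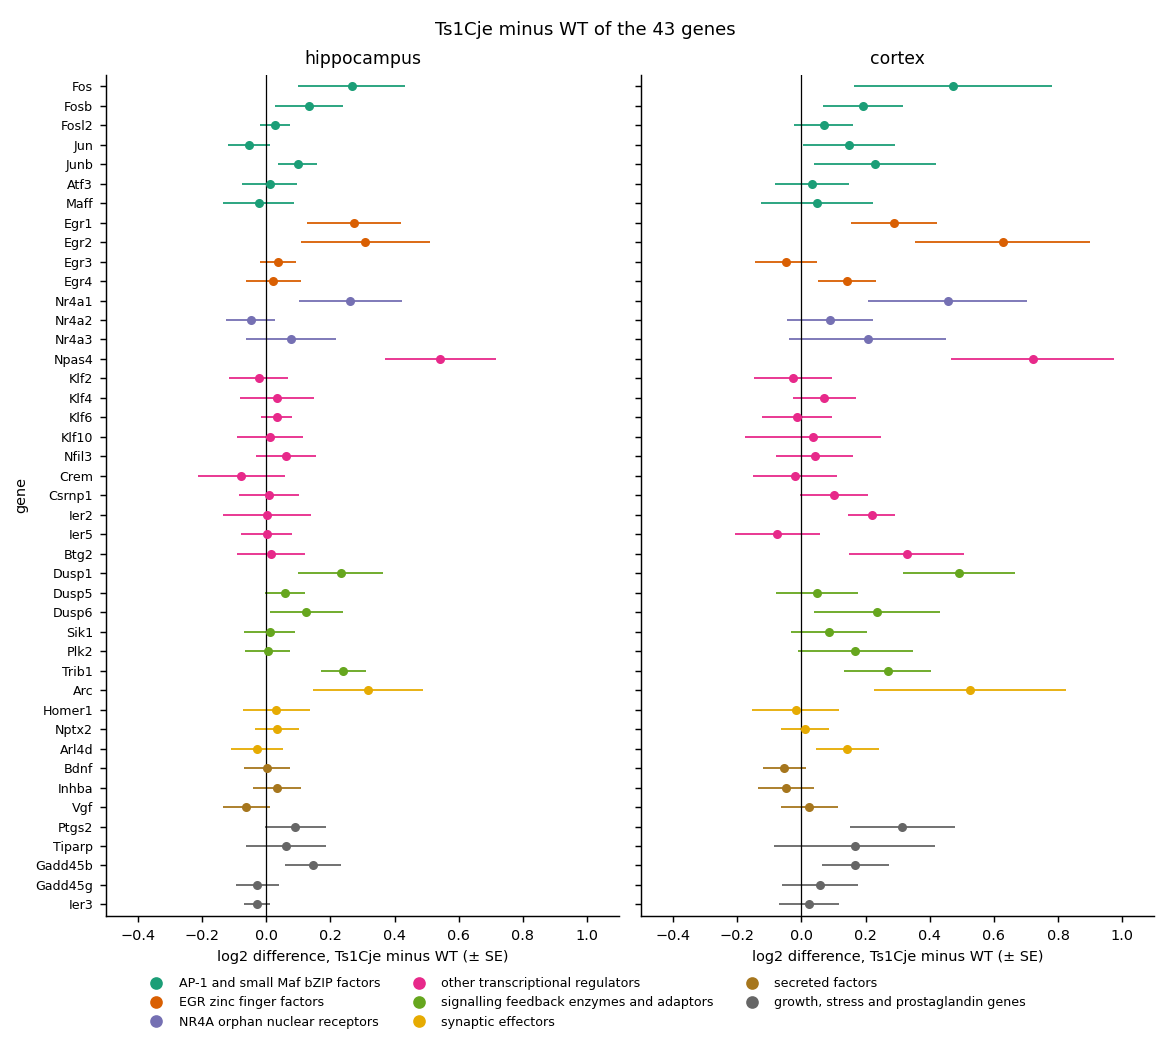
Log2 difference (Ts1Cje minus WT) of each of the 43 genes with its SE from limma, in hippocampus on the left and cortex on the right, coloured by role. Most points lie right of 0, none is called, and Npas4 stands farthest right in both tissues at 0.54 and 0.72.

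The WT animals differed in how far they overlapped with the Ts1Cje animals. WT animal 98 had the highest array for 10 of the 43 genes in hippocampus and 16 in cortex, and WT animal 65 the lowest for 8 and 14. How often these animals held those places among all genes was not counted, so the counts cannot be read as a trait of the 43 genes. The mean of the 12 rapidly induced genes was 7.53, 7.42, 7.67, 7.66, 7.90 and 7.67 in the hippocampus of Ts1Cje animals 61, 63, 64, 87, 94 and 97, against 7.38, 7.18, 7.22, 7.62 and 7.78 in WT. In cortex it was 8.80, 8.68, 8.50, 8.84, 8.90 and 9.00 in Ts1Cje, against 8.27, 8.20, 7.92, 8.59 and 9.00 in WT. WT animals 60, 62 and 65 lay below every Ts1Cje animal in both tissues, and WT animal 95 lay within the Ts1Cje range in both. WT animal 98 lay above all Ts1Cje animals in cortex and above all but animal 94 in hippocampus. The mean also followed the animals' numbers. In cortex Ts1Cje animals 61, 63 and 64 lay below 87, 94 and 97, and WT animals 60, 62 and 65 below 95 and 98. The WT animals split in the same way in hippocampus, while Ts1Cje animal 64 lay above animal 87 there. How far this bears on the genotype differences, the spread or the agreement of the tissues was not tested.

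WT animals 98 and 65 were singled out by their signals for these genes, so leaving either out moves the difference in a known direction and is given as a description. Without WT animal 98, 7 genes in hippocampus and 14 in cortex were at an unadjusted p under 0.05, all higher in Ts1Cje, where 1.49% and 0.949% of all genes were, and 0 were called after adjustment. The log2 difference in cortex was then 0.86 ± 0.25 for Npas4, 0.85 ± 0.23 for Egr2, 0.79 ± 0.24 for Arc, 0.72 ± 0.26 for Fos and 0.66 ± 0.13 for Dusp1. Without WT animal 65, 2 genes in hippocampus (background 1.56%) and 3 in cortex (background 0.756%) were at an unadjusted p under 0.05. The median difference of the 43 genes in cortex was 0.19 without WT animal 98 and 0.07 without WT animal 65. Without Ts1Cje animal 64 the count in cortex was 9 (background 2.05%). Without animals 60 and 64 together it was 2 in hippocampus (background 4.43%) and 7 in cortex (background 3.50%), with 0 called. Another model moved it as well, to 13 in cortex with array weights (background 4.28%), to 7 with a single fit on all arrays (background 1.54%), and to 1 in hippocampus and 9 in cortex with a random replicate block for each animal (backgrounds 0.953% and 1.27%).

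Marker lists of other cells were read on the same arrays. The 13 striatal neuron markers averaged 9.80 to 10.00 in Ts1Cje cortex and 9.36 to 9.99 in WT cortex, with animal 98 lowest, and 13 of 13 lay above 0 (median 0.17), 2 of them at an unadjusted p under 0.05. In hippocampus the same markers averaged 7.17 to 7.58 in Ts1Cje and 7.15 to 7.31 in WT. The 12 glucocorticoid-induced genes, which rise with stress hormone, averaged 8.04 to 8.22 in Ts1Cje hippocampus and 8.05 to 8.33 in WT, and 8.57 to 8.81 in Ts1Cje cortex and 8.60 to 8.91 in WT. Animal 98 was the highest in both tissues, while the list's median difference was -0.02 in hippocampus and 0.01 in cortex. Of 12 oligodendrocyte markers 11 lay above 0 in each tissue, with medians of 0.06 in hippocampus and 0.10 in cortex. Of 12 interneuron markers 8 lay above 0 in hippocampus (median 0.02), 2 of them at an unadjusted p under 0.05 and 1 at such a p below 0, and 10 in cortex (median 0.11, as large as that of the 43 genes). The 3 red cell markers measured, of 7 listed, averaged 7.11 to 8.13 in Ts1Cje cortex and 5.80 to 7.52 in WT cortex, with animal 60 lowest, and all 3 lay above 0 (median 0.31). In hippocampus 2 of the 3 did (median 0.09). Some other lists leaned below 0 in hippocampus. There 3 of 16 hippocampal neuron markers lay above 0 (median -0.08), 2 of 13 choroid plexus markers (median -0.21) and 2 of 12 astrocyte markers (median -0.07). Of these lists 3, 2 and 1 genes were at an unadjusted p under 0.05 and lower in Ts1Cje. In cortex 5 of 16, 5 of 13 and 4 of 12 lay above 0 (medians -0.01, -0.02 and -0.02). None of the marker genes was called, and their part in the results was not tested.

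Genes upstream of this response were described in the same way. The 23 kinases, receptors and channels that carry the calcium signal had a median log2 difference (Ts1Cje minus WT) of -0.001 in hippocampus, with 10 of 23 above 0, and 0.02 in cortex, with 15 of 23. The 19 transcription factors and coactivators that bind these promoters stood at -0.03 in hippocampus, with 4 of 19 above 0 and 1 at an unadjusted p under 0.05 and lower in Ts1Cje, and at 0.01 in cortex, with 12 of 19 above 0. A further 24 activity-regulated genes outside the 43 stood at -0.02, with 9 of 24 above 0, and 0.07, with 19 of 24 above 0. The largest difference among them was that of the matricellular gene Ccn1, 0.18 in hippocampus and 0.48 in cortex. None of the genes in these 3 lists was called in either tissue.

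The genotype difference did not pass a test of differing between tissues for any of the 43 genes. limma called 0 of them for the difference of the 2 effects, hippocampus minus cortex (background 0%), and 0 were at an unadjusted p under 0.05, against 264 of all genes. This fit did not pair the 2 tissues of an animal. With the animal as a fixed replicate block limma called 0, and 1 was at an unadjusted p under 0.05, against 868 of all genes. The median of the 43 differences of effects was -0.08, against -0.009 for all genes, with 10 of 43 above 0.

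Some of these genes differed in level between the tissues themselves, as did many of all genes tested. Each array was first centred on its own median, since the array medians of the tissues differ, and limma then compared hippocampus with cortex. It called 8 of 43 genes higher in hippocampus (background 20.4%) and 15 lower (background 21.2%). The share called higher was no larger than among all genes, and the share called lower was larger. The median log2 difference was -0.14 against -0.004 for all genes. Both tissues came from the same animals, and with the animal as a fixed replicate block limma called 11 higher (background 26.5%) and 21 lower (background 27.7%). The block lost none of the calls and added Atf3, Gadd45b and Klf4 as higher and Fos, Nr4a1, Crem, Btg2, Dusp6 and Trib1 as lower. Calls named in the text are those without the block unless it is mentioned. Leaving out animals 60 and 64, limma without the block called 10 higher (background 32.4%) and 22 lower (background 33.2%). With the deposited values, where the median gene sits 0.63 log2 units lower in hippocampus and 2.57% of genes lie above 0, 3 were called higher (background 1.49%) and 40 lower (background 93.8%), so a direction here is relative to the median gene.

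Nr4a3, a nuclear receptor of the Nr4a1 family, stood highest, with a centred signal of 1.77 to 2.53 in hippocampus and 0.26 to 1.84 in cortex. Its difference was 1.24 ± 0.15, or 2.36-fold (limma, adjusted p = 6.73e-07), and it was higher in hippocampus in 11 of 11 animals. Ptgs2 was higher by 0.86 ± 0.10 and Jun, the partner of Fos in AP-1, by 0.82 ± 0.08, each in 11 of 11 animals. Dusp5 (0.45), Gadd45g (0.45), Nr4a2 (0.41), Fosl2 (0.30) and Bdnf (0.22) were also called higher, Nr4a2 and Bdnf in 10 of 11 animals.

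Npas4 stood lowest, with a centred signal of -0.37 to 1.07 in hippocampus and -0.05 to 1.98 in cortex. It was lower in hippocampus by a log2 of 0.96 ± 0.16 on this scale, 1.95-fold, in 11 of 11 animals (limma, adjusted p = 4.68e-05). Homer1 differed by -0.94 ± 0.09 and Egr2 by -0.85 ± 0.18, each lower in 11 of 11 animals. The other genes called lower were Inhba, a subunit of activin (-0.77), Dusp1 (-0.73), Ier5 (-0.70), Egr1 (-0.68), Klf6 (-0.64), Arl4d (-0.62), Fosb (-0.59), Nptx2 (-0.55), Egr3 (-0.43), Ier3 (-0.41), Nfil3 (-0.36) and Sik1 (-0.24). All 15 called lower were lower in every animal.

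Members of one family did not share a direction. Of the NR4A receptors Nr4a3 and Nr4a2 were higher in hippocampus and Nr4a1 stood at -0.34 ± 0.16 and was called with the replicate block alone (adjusted p = 0.00222). Of the AP-1 subunits Jun and Fosl2 were higher, Fosb was lower, and Fos stood at -0.44 ± 0.18 (adjusted p = 0.0623, and 0.00346 with the block) and Junb at -0.11. Of the EGR factors Egr1, Egr2 and Egr3 were lower and Egr4 stood at -0.002. Of the secreted factors Bdnf was higher and Inhba lower.

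**Figure D3:**
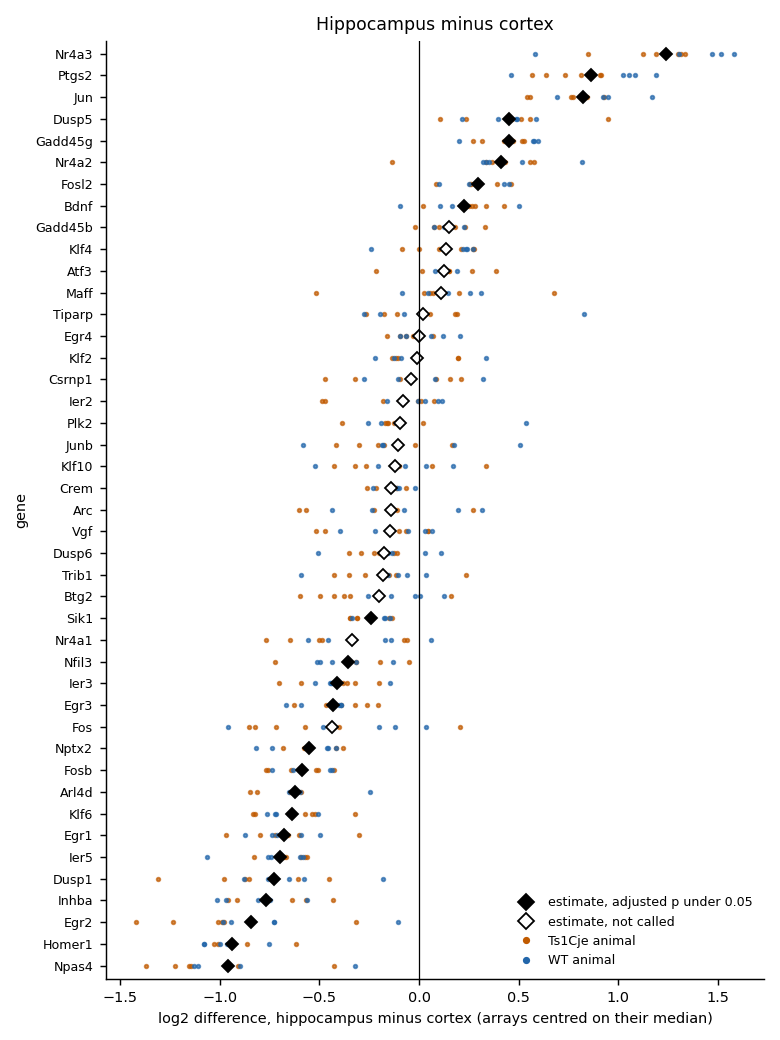
Log2 difference (hippocampus minus cortex, arrays centred on their median) of the 43 genes, with the limma estimate as a diamond, filled where the adjusted p was under 0.05, and a dot for each of the 11 animals. Nr4a3, Ptgs2 and Jun lie right of 0 in all animals and Npas4, Homer1 and Egr2 left of 0 in all.

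The dissections can be read from marker genes on the same scale. Of 16 hippocampal neuron markers 15 were called higher in hippocampus, and of 15 cortical excitatory neuron markers 10 were called lower and 5 higher. All 13 choroid plexus markers were higher in hippocampus (median 2.07) and all 13 striatal markers lower (median -1.84). The tissues also differ in extraction kit, so tissue, kit and included neighbouring tissue cannot be told apart for any of these genes.

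The spread between animals of a genotype depended on whether animals 60 and 64 were counted. Without animals 60 and 64, 16 of the 43 in hippocampus and 28 in cortex were in the top 10% of SD among genes of like signal, and 7 and 10 in the top 1%. With all animals, 10 and 11 were in the top 10% and 0 and 1 in the top 1%. The median percentile of the 43 genes was 80.5 in hippocampus and 94.6 in cortex without those animals, and 62.4 and 66.3 with them.

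Arc had an SD between animals of 0.34 log2 units in hippocampus and 0.51 in cortex without animals 60 and 64, above 99.9% and 99.8% of genes of like signal. Npas4 had 0.34 and 0.51, Fos 0.35 and 0.55, Nr4a1 0.32 and 0.43, and Egr2 0.41 and 0.54. Bdnf had SDs of 0.08 and 0.08, above 43.3% and 33.1% of genes of like signal. Homer1 had 0.07 and 0.15, above 59.5% and 94.3%. Neither class was uniform. Of the late genes Vgf was above 95.3% of genes of like signal in hippocampus and Nfil3 above 95.7% in cortex, and of the rapid genes Junb was above 33.8% in hippocampus and Ier2 above 18.5% in cortex. Ier3, at 0.04 in hippocampus, was above 4.22% of genes of like signal.

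Most of the rapidly induced genes varied together. As a description, each gene's deviations from its genotype's mean were correlated over the 11 animals with the mean of the other rapidly induced genes, on the same arrays. In hippocampus 13 of the 43 genes were in the top 1% of all genes on this measure and 20 in the top 5%, and in cortex 20 and 28. The counts were 13 and 19, and 17 and 29, without animals 60 and 64. They include the rapidly induced genes themselves, a class drawn up with earlier results of these data known. Fos reached r = 0.94 in hippocampus and 0.95 in cortex, Dusp1 0.96 and 0.89, Egr1 0.93 and 0.89, Nr4a1 0.90 and 0.86, and Arc 0.85 and 0.92. Ier2 reached 0.37 in hippocampus and 0.10 in cortex, the lowest of the 12 in cortex.

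Some genes had a high r in one tissue and a low one in the other. Junb had r = 0.33 in hippocampus and 0.95 in cortex, Nfil3 0.30 and 0.88, and Ier5 0.01 and 0.80. Vgf, a secreted granin-like precursor, had 0.85 in hippocampus and -0.48 in cortex. Bdnf had -0.15 and -0.21, and Klf4 0.01 and -0.43. The difference between the tissues' r was not tested.

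The agreement of the tissues within an animal was measured next. Over the 11 animals, as deviations from the genotype's mean, the median r between cortex and hippocampus was 0.64 for the 43 genes and 0.52 for all genes. Without animals 60 and 64, whose arrays stood apart in both tissues, the median r was 0.44 for the 43 genes and 0.09 for all genes. An r above 0.6 was held by 41.9% of the 43 and 10.3% of all genes without animals 60 and 64, against 53.5% and 42.6% with all 11 animals. With only WT animal 98 left out the median r was 0.53 for the 43 genes and 0.53 for all genes, and an r above 0.6 was held by 46.5% and 42.9%. With only WT animal 65 left out the medians were 0.59 and 0.54. Over all 11 animals the median Spearman rho was 0.55 for the 43 genes and 0.34 for all genes, and after quantile normalization the median r was 0.63 and 0.37.

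In the exact permutation test, which permutes animals within genotype, 21 of 43 genes had r above 0 with an unadjusted p under 0.05 over 11 animals (background 39.1%), and 3, Crem, Dusp6 and Jun, passed after adjustment over all genes (background 5.01%). These calls depended on the setting, and 0 of the 43 passed with Spearman rho, with quantile normalization or with any single animal left out except Ts1Cje 63, and 1 passed on median-centred arrays. Without animals 60 and 64, 11 of 43 had an unadjusted p under 0.05 (background 4.94%) and 0 passed after adjustment, as did 0 of all 20768 genes. The smallest p that 9 animals allow is 0.000347, and Npas4 reached it. Animals of low and high number were permuted together, and agreement among animals of like number was not tested.

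**Figure D4:**
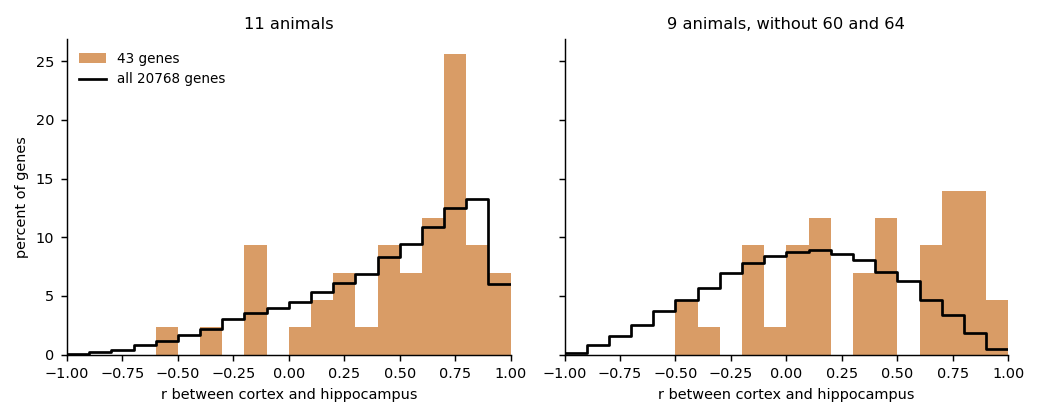
Share of genes at each r between cortex and hippocampus over animals, with bars for the 43 genes and a line for all 20768 genes, using 11 animals on the left and 9 on the right. The line moves from a median of 0.52 to 0.09 when animals 60 and 64 are left out, and the bars keep 41.9% of the genes above 0.6.

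Sik1, a kinase induced through CREB that in turn restrains CREB's coactivators, had the highest r without animals 60 and 64, at 0.95 (exact permutation p = 0.00903, adjusted p = 0.579, n = 9), and 0.91 over 11 animals. Its Spearman rho was 0.77 over 11 animals (exact permutation p = 0.0136), and r was 0.56 without the 2 animals farthest out in cortex, WT 98 and Ts1Cje 97. Dusp6, a phosphatase of ERK, had r = 0.94 over 11 animals (exact permutation p = 0.000625, adjusted p = 0.0428), rho = 0.87 (exact permutation p = 0.00182) and r = 0.88 without the 2 farthest animals, WT 98 and WT 60. Its r was 0.90 without animals 60 and 64.

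Fos had r = 0.74 over 11 animals (exact permutation p = 0.0235, adjusted p = 0.0828), rho = 0.72 (exact permutation p = 0.0323) and r = 0.84 without the 2 farthest animals in cortex, Ts1Cje 64 and WT 98. Arc had r = 0.85 (exact permutation p = 0.00625, adjusted p = 0.0602), rho = 0.75 (exact permutation p = 0.013) and r = 0.67 without WT 98 and Ts1Cje 64. Npas4 had r = 0.67 (exact permutation p = 0.0262, adjusted p = 0.0859), rho = 0.65 (exact permutation p = 0.0445) and r = 0.42 without WT 65 and WT 98, so its relation rests in part on those WT animals. The r of Npas4 was 0.85 without animals 60 and 64. Over the 6 Ts1Cje animals alone r was lower for these genes, at 0.44 for Fos, 0.54 for Arc and 0.12 for Npas4. It was 0.28 for Nr4a1, 0.27 for Egr2, -0.29 for Egr1 and -0.49 for Dusp1, against 0.76 for Sik1 and 0.88 for Dusp6. These 6 include animal 64, whose arrays stood apart and whose cortical Dusp6 signal, 9.67, was far below the others. Agreement within each genotype was not tested.

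Crem, a CREB-family gene, showed how the arrays that stood apart enter this measure. Its r of 0.98 over 11 animals was the highest of the 43 (exact permutation p = 0.00088, adjusted p = 0.0453), with rho = 0.79. Ts1Cje animal 64 and WT animal 60 had its lowest signals of their genotype in both tissues, and r was 0.79 without them. Plk2, a kinase that adjusts synaptic strength, had r = 0.89 over 11 animals and 0.44 without those animals (exact permutation p = 0.310), so its relation rests on them. Jun had r = 0.87 (exact permutation p = 0.0025, adjusted p = 0.0499) and 0.72 without them.

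A few genes had an r near or below 0. Over 11 animals r was -0.53 for Bdnf, -0.40 for Vgf, -0.13 for Inhba and 0.02 for Nptx2, and without animals 60 and 64 it was -0.40, -0.38, -0.02 and 0.08. Ptgs2 had 0.62 over 11 animals and -0.42 without those animals, and Nr4a3 0.73 and -0.15. Of the 4 genes Bdnf, Vgf, Inhba and Nptx2, the lowest exact permutation p over 11 animals was 0.0954, for Bdnf, whose r was -0.05 without WT 95 and WT 60.

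**Figure D5:**
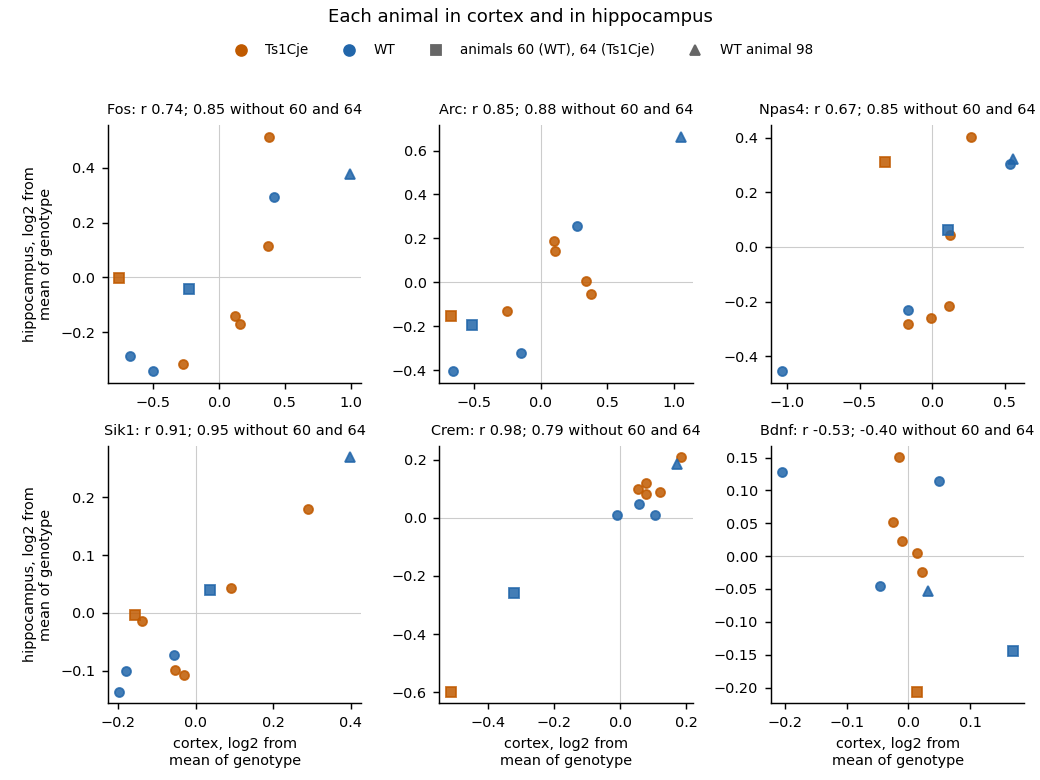
Each animal's deviation from its genotype's mean in cortex (horizontal axis) and hippocampus (vertical axis), in log2 units, for 6 genes, with the r over 11 and over 9 animals in each title. Fos, Arc, Npas4 and Sik1 run upward with or without animals 60 and 64 (squares), those squares set most of the range of Crem, and Bdnf runs downward.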

How the data were processed

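RNA of hippocampus and cortex from 6 Ts1Cje and 5 WT mice was hybridized to 22 whole-transcript arrays. The deposited values are log2 signals made by the authors with RMA, per the submitters' processing notes, and whether both tissues were normalized together is not given in the sources used here. Features carry Entrez gene numbers, and 20768 of 21225 were named through the RefSeq gene table of GRCm38.p6. Of these, 529 are not in the platform annotation. The title of 2 arrays reads WT 60 and their description WT 61; the title was used.

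Ts1Cje was compared with WT within each tissue by limma 3.58.1 (R 4.3.3), with Benjamini-Hochberg adjustment over all 20768 genes and a threshold of 0.05. The difference of the genotype effects used all arrays. Hippocampus was compared with cortex with the median of each array set to 0. The correlation of the tissues over animals used deviations from the genotype's mean and an exact two-sided permutation of animals within genotype (86400 permutations for 11 animals, 2880 for 9). Figures and descriptions used Python 3.11.15, numpy 2.4.6, pandas 2.3.3, scipy 1.17.1 and matplotlib 3.10.9. The fits were tested on simulated data.

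The number of arrays limits the precision. Both tissues of an animal share its number, per the labels, so numbers pair arrays. The correlation of paired arrays' deviations had a median of 0.264 (0.0531 to 0.762), and 2 of 11 arrays matched their own partner best. Alternatives were array weights, quantile normalization, centring, a filter on dim genes, a robust prior, a replicate block, and leaving out each animal or animals 60 and 64. The named genes were all 43 by role, 8 with every array, and those with the lowest p, the most extreme difference between tissues or the highest r. The members and lists were chosen with earlier results of these data known.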

Additional observations from a re-analysis of the deposited data

Results flagged for a closer look

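Of 72 sets of one gene in one genotype and tissue, 11 held an animal far from the others by Dixon's test, which flags about 1 in 20 groups by chance. Ts1Cje animal 64 gave 8 of the 11. Its signal was the lowest of the 6 Ts1Cje animals for Crem (6.00), Jun (9.40), Nr4a3 (8.84), Plk2 (9.28) and Homer1 (8.80) in hippocampus and for Crem (6.88), Dusp6 (9.67) and Plk2 (9.88) in cortex. WT animal 60 was far below the other WT animals for Nr4a3 in hippocampus (8.72). Ts1Cje animal 94 was far above for Egr2 in hippocampus (7.02), and WT animal 98 far above for Trib1 in cortex (7.89). The cause was not tested.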

How the results depend on the processing

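No gene of the 43 was called between genotypes under any alternative run. The median log2 difference ranged over 0.02 to 0.05 in hippocampus and 0.07 to 0.19 in cortex when each animal was left out. With a random replicate block for each animal the counts of called genes were 0 in both tissues, and with a fixed replicate block 0 for the difference of effects and 32 for hippocampus minus cortex, against 23 without it, while the genes called among all 20768 were 11265 and 8637. Deposited values gave 43 called genes between tissues, where the median gene shifts by -0.63, and leaving out each animal gave 23 to 26. The median r between tissues was 0.44 without animals 60 and 64 and 0.53 to 0.70 when each animal was left out. Of the differences near 0, Bdnf in cortex was 0.00502 with array weights, and Ier2 in hippocampus was -0.0748 with array weights, -0.0167 with quantile normalization and -0.0482 without animals 60 and 64. Leaving out each animal gave -0.0671 to 0.0801 for Ier2, -0.0325 to 0.0449 for Bdnf and -0.0269 to 0.116 for Homer1 in hippocampus, and -0.123 to 0.0492 for Homer1 in cortex. The cause was not tested. Of the values of r for named genes under alternatives, 62 kept their side of the threshold, 27 lost the call and 1 gained it. The genes called for r among the 43 were 0 to 4 over these alternatives.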
